A study of Gallus gallus with 6 samples.

Results

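Lysyl oxidases and procollagen proteinases are the secreted enzymes that turn newly made procollagen into cross-linked fibres. The group was defined by 10 gene symbols: the lysyl oxidases LOX, LOXL1, LOXL2, LOXL3 and LOXL4, the C-propeptide proteinases BMP1 and TLL1, the proteinase enhancers PCOLCE and PCOLCE2, and the N-propeptide proteinase ADAMTS2. Every probe set whose platform symbol was exactly one of them was taken, which gave 13 of 38535 probe sets for 8 of the 10 genes, among 13009 genes named on the array. No probe set carried the symbol BMP1 or PCOLCE, so these genes were not analysed here. Some of the 11180 probe sets without a symbol could belong to them. The rule itself used no measured value, but the group was proposed with earlier results of these data known, so the counts below describe it and are no independent evidence.

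Cells treated with TGFBR1 Kinase Inhibitor II were set against cells given only its solvent, DMSO. The inhibitor, a compound that stops the TGF-beta type I receptor from phosphorylating its targets, was used at 500 nM in DMSO for 48 hours on 3 samples, and the 3 control samples received 0.1% DMSO. All 6 samples were chicken embryo dermal myofibroblasts of the brown Leghorn breed, grown out of embryo skin taken on day 10, in medium with 4% fetal bovine and 2% chicken serum, so every culture also had whatever growth factors serum brings. RNA was measured on Affymetrix arrays, 1 per sample, and the deposited values are log2 intensities.

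Fibrillar collagens are secreted as procollagens with a propeptide at each end. In vertebrates the tolloid family, which holds BMP1 and TLL1, removes the C-propeptide, PCOLCE and PCOLCE2 speed that cut without being proteases themselves, and ADAMTS2 and its relatives remove the N-propeptide, after which the molecules assemble into fibrils. Lysyl oxidases are copper-dependent amine oxidases that convert lysines of collagen and elastin into aldehydes, from which the covalent cross-links form. TGF-beta is widely known as an inducer of collagen synthesis and cross-linking in fibroblasts.

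Arrays of the same group were more alike than arrays of different groups. Over the 16567 probe sets tested, the correlation of arrays within a group was 0.977 to 0.984 and between groups 0.942 to 0.963, and no 2 arrays held identical values. Of 15 tested fibroblast and myofibroblast markers 1 rose (PDGFRB) and 2 fell (TWIST2 and POSTN), with sums of their log2 values of 182.0 to 187.1 in inhibitor and 186.1 to 188.6 in DMSO arrays. With same-numbered arrays paired as a block 2 rose and 4 fell. Of all tested genes 8.17% rose and 7.5% fell without the block, and 16.5% rose and 15.2% fell with it. Without the block, the TWIST2 call was lost without any one array (limma adjusted p 0.0528 to 0.102). With the block on 6 arrays its limma adjusted p was 0.0308. LUM, the proteoglycan lumican, averaged 12.6 in inhibitor and 14.6 in DMSO arrays, a log2 difference of -1.95 ± 0.55 (SE; limma adjusted p 0.0651, and 0.00421 with the block), and its groups did not overlap. TWIST1 averaged 10.7 in inhibitor and 9.82 in DMSO arrays, a difference of 0.85 ± 0.24 (SE; limma adjusted p 0.0661, and 0.00366 with the block), also without overlap. COL1A1, COL3A1 and VIM averaged 15.4, 15.0 and 15.8 in inhibitor arrays and 15.5, 15.0 and 15.8 in DMSO arrays. ACTA2, the actin used as the myofibroblast marker, averaged 7.89 in inhibitor and 7.43 in DMSO arrays. Among markers of other cells, 1 of 7 keratinocyte, 2 of 7 endothelial and 1 of 6 melanocyte markers named on the array passed the filter on dim probe sets, which kept those reaching 4 on the log2 scale in 3 or more of 6 arrays, as did 1 of 7 skeletal muscle, 2 of 4 Schwann cell or neuron and 1 of 5 cartilage markers. Of the Schwann cell or neuron markers, FABP7 was bright, averaging 11.4 in inhibitor and 11.6 in DMSO arrays (limma adjusted p 0.624), and NEFL averaged 4.56 and 4.65. PECAM1 of endothelium averaged 4.70 in inhibitor and 5.53 in DMSO arrays and fell (limma adjusted p 0.0409, and 0.0290 with the block). Without the block, that call was lost without any one array (0.0696 to 0.103). Of the other tested PECAM1 probe sets 1 fell and 1 did not pass (limma adjusted p 0.00714 and 0.165). ERG, the other endothelial marker that passed, averaged 10.7 in inhibitor and 10.5 in DMSO arrays (difference 0.20 ± 0.18, SE; limma adjusted p 0.518), and the remaining 5 lay under the filter. MITF, the melanocyte marker that passed the filter, read 8.90 to 9.31 in inhibitor and 7.60 to 8.62 in DMSO arrays. Its difference was 0.97 ± 0.27 (SE; limma adjusted p 0.0619, and 0.00729 with the block), and its other tested probe set rose by 1.17 (limma adjusted p 0.0392). The pigment genes DCT, TYR, TYRP1 and PMEL lay under the filter. The 4 tested macrophage markers, PTPRC, CD74, CSF1R and CTSS, had summed log2 values of 24.4 to 24.9 in inhibitor and 23.2 to 23.3 in DMSO arrays, and limma called 0 of the 4 (1 rose at an unadjusted p under 0.05). The part of these markers in the results was not tested. In bulk RNA, fewer cells of a type and less RNA per cell cannot be told apart. The 3′ minus 5′ log2 difference of the actin controls, which tracks how intact the RNA is, was 1.57 ± 0.08 in inhibitor and 1.43 ± 0.05 in DMSO arrays (SD, n = 3 each; two-sided exact permutation p = 0.1, which 3 arrays against 3 cannot go below). The same measure was -0.067 ± 0.054 in inhibitor and -0.023 ± 0.073 in DMSO arrays for the GAPDH controls (exact permutation p = 0.5), and 0.504 ± 0.034 in inhibitor and 0.496 ± 0.048 in DMSO arrays for the EF1A controls (exact permutation p = 1).

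In inhibitor-treated cells the transcripts of one procollagen proteinase, one proteinase enhancer and a pair of lysyl oxidases were lower than in DMSO cells, and those of one lysyl oxidase were higher. TLL1 fell 4.80-fold, PCOLCE2 3.05-fold, LOXL3 2.12-fold by the brighter of its probe sets and LOXL2 2.02-fold, while LOXL1 rose 1.78-fold. ADAMTS2 did not pass the test, and LOX passed only when same-numbered arrays were paired through a replicate block in the fit. In limma, with Benjamini-Hochberg adjustment over all 16567 probe sets and an adjusted p under 0.05 as a call, 1 of the 7 tested genes rose and 4 fell, where 8.17% of all 8124 tested genes rose and 7.5% fell. With the replicate number as a block, 1 rose and 5 fell, where 16.5% of all genes rose and 15.2% fell. Taking both directions together, that is 5 of 7 genes against 15.7% of all genes, and 6 of 7 against 31.6% with the block. By probe set it is 5 of 8 against 13.8% of all, and 6 of 8 against 28.1% with the block. The median log2 difference of the 7 genes was -1.02, against 0.0074 over all tested genes. The labels call the samples biological replicates without naming separate embryos, so the p-values speak only to the spread among these samples, which may be technical.

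**Figure D1:**
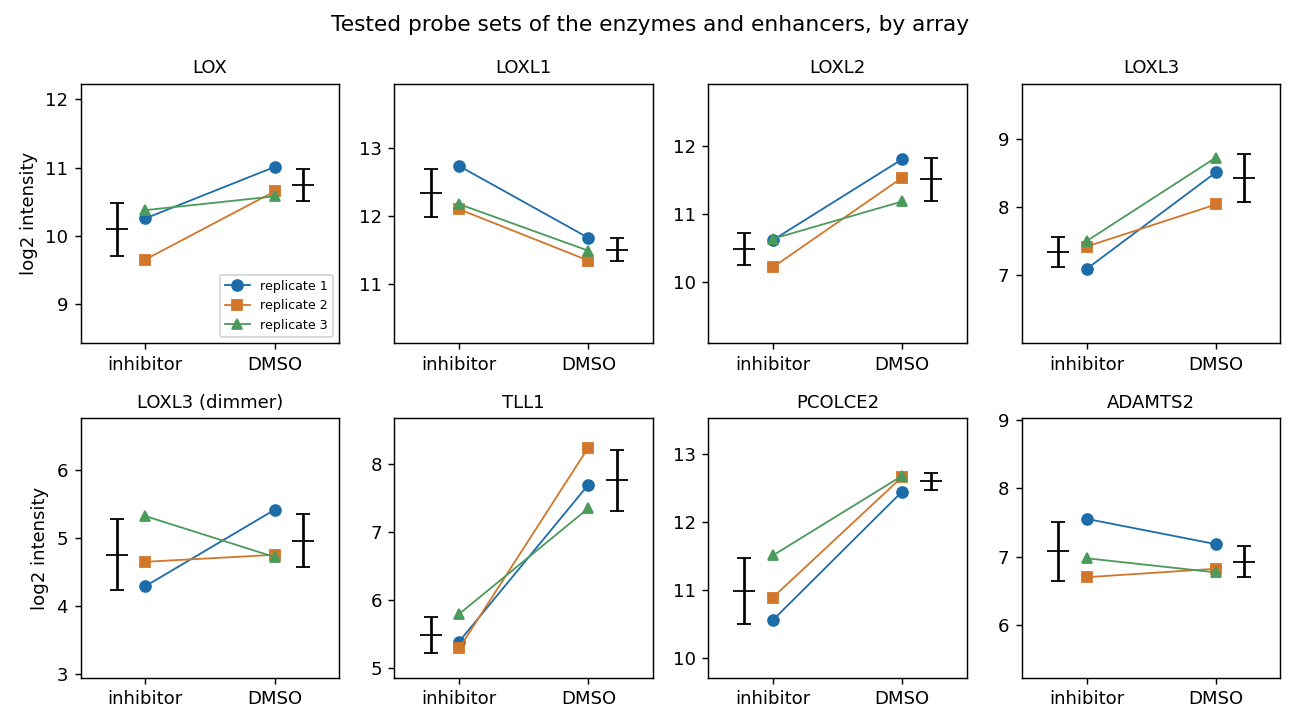
Log2 intensity (vertical axis) of the 8 tested probe sets in inhibitor and DMSO arrays; points are arrays, lines join arrays of the same replicate number, and black bars give the mean and SD of 3 arrays. Each panel spans the same number of log2 units. The groups do not overlap for LOX, LOXL1, LOXL2, the brighter LOXL3 probe set, TLL1 and PCOLCE2, and they overlap for the dimmer LOXL3 probe set and ADAMTS2.

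LOX, the enzyme that gave the family its name, is made as a proenzyme that tolloid proteinases activate, so it lies downstream of the same proteinases that trim procollagen. Its single probe set read 10.3, 9.65 and 10.4 in inhibitor arrays 1, 2 and 3, against 11.0, 10.7 and 10.6 in DMSO arrays 1, 2 and 3. All inhibitor arrays lay below all DMSO arrays, by a margin of only 0.20 between the highest inhibitor and the lowest DMSO array, both of them replicate 3. The log2 difference was -0.65 ± 0.22 (SE, 3 arrays per group), with a 95% interval of -1.18 to -0.13. It did not pass over all probe sets (limma adjusted p 0.104) and passed with the replicate block (limma adjusted p 0.0339). Within same-numbered arrays the difference was -0.75, -1.00 and -0.20 for replicates 1, 2 and 3. Replicate 3 thus showed the smallest of the 3 differences, and with the block the difference was -0.88 without that pair (limma adjusted p 0.00279). Without pair 1 or pair 2 it was -0.60 and -0.48 (limma adjusted p 0.156 and 0.130). Without the block and without inhibitor replicate 2 it was -0.43.

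LOXL1, which resembles LOX in its catalytic end and is best known from mice for its part in elastic fibre upkeep, went the other way. Its probe set read 12.7, 12.1 and 12.2 in inhibitor arrays, against 11.7, 11.3 and 11.5 in DMSO arrays. Every inhibitor array lay above every DMSO array, with replicate 1 the highest of both groups. The log2 difference was 0.83 ± 0.19 (SE, 3 arrays per group; limma adjusted p 0.0332), and 1.05, 0.75 and 0.68 within replicates 1, 2 and 3. The call was lost without inhibitor 3, DMSO 1, DMSO 2 or DMSO 3 (limma adjusted p 0.0607, 0.0703, 0.0972 and 0.0992), where the difference stayed at 0.75 to 0.92. With the block the adjusted p was 0.00305 on 6 arrays and 0.00248 to 0.0172 when any one same-numbered pair was left out.

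LOXL2, LOXL3 and LOXL4 form the branch of the family that carries scavenger receptor cysteine-rich domains, and in mammals LOXL2 is known for cross-linking collagen IV as well as fibrillar collagen. The LOXL2 probe set read 10.6, 10.2 and 10.6 in inhibitor arrays, against 11.8, 11.5 and 11.2 in DMSO arrays. The groups were separated by 0.55, and again the inhibitor and DMSO arrays nearest to each other were those of replicate 3. The log2 difference was -1.02 ± 0.19 (SE, 3 arrays per group; limma adjusted p 0.0187), which left the inhibitor signal at 49.5% of the DMSO signal. Within replicates 1, 2 and 3 it was -1.18, -1.31 and -0.55, so replicate 3 showed the smallest difference, as for LOX. The LOXL2 call was lost without inhibitor 1, DMSO 1 or DMSO 2 (limma adjusted p 0.0523, 0.0595 and 0.0596). With the block it held on 6 arrays (limma adjusted p 0.00881) and was lost without pair 1 (0.0584).

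LOXL3, which in mice is needed for palate and vertebral cartilage to form normally, had a pair of probe sets above the filter. The brighter one read 7.09, 7.42 and 7.50 in inhibitor arrays, against 8.51, 8.04 and 8.73 in DMSO arrays, with no overlap. Its log2 difference was -1.09 ± 0.21 (SE, 3 arrays per group; limma adjusted p 0.0221), and -1.42, -0.62 and -1.22 within replicates 1, 2 and 3. The smallest of these differences was that of replicate 2, unlike LOX and LOXL2. The call was lost without inhibitor 1, inhibitor 2, DMSO 1 or DMSO 3 (limma adjusted p 0.0720, 0.0529, 0.0840 and 0.0688). With the block it held on 6 arrays (limma adjusted p 0.0104) and was lost without pair 1 (0.0643).

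The dimmer LOXL3 probe set read 4.29, 4.65 and 5.32 in inhibitor arrays, against 5.41, 4.75 and 4.72 in DMSO arrays. The groups overlapped, inhibitor 3 being higher than DMSO 2 and DMSO 3, and the log2 difference was -0.21 ± 0.32 (SE, 3 arrays per group; limma adjusted p 0.721), with a 95% interval of -0.97 to 0.56. That interval does not include the -1.09 of the brighter probe set, but it overlaps the 95% interval of that probe set, -1.60 to -0.57. The differences of both probe sets, taken within each array, moved by -0.88 between inhibitor and DMSO (two-sided exact permutation p = 0.1, which 3 arrays against 3 cannot go below). The fall of LOXL3 therefore rests on 1 of its 2 tested probe sets.

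LOXL4 had 3 probe sets, and none reached a log2 value of 4 in any array. They read 1.74 to 2.26 in inhibitor and 1.73 to 2.55 in DMSO arrays, below the median of 2.98 to 3.03 over all probe sets of an array, and were left out by the filter. With no filter their limma adjusted p was 0.574 to 0.960.

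Of the C-propeptide proteinases in the group, only TLL1, tolloid-like 1, was named on the array, and it had the largest difference among the tested genes of the group. Its mammalian counterpart cleaves procollagens and chordin and is needed in mice for the heart to form. Its probe set read 5.39, 5.29 and 5.80 in inhibitor arrays, against 7.69, 8.24 and 7.35 in DMSO arrays. The highest inhibitor array lay 1.55 below the lowest DMSO array, both of them replicate 3. The log2 difference was -2.26 ± 0.26 (SE, 3 arrays per group; limma adjusted p 0.00396), which left 20.8% of the DMSO signal. Within replicates 1, 2 and 3 it was -2.30, -2.94 and -1.55. Leaving out any one array kept the call, with differences of -2.47 to -2.03 (limma adjusted p 0.00959 to 0.0218). All 6 values lay above the filter level of 4.

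PCOLCE2 encodes a secreted protein that binds the C-propeptide of procollagen and enhances its removal by tolloid proteinases. Its bright probe set read 10.6, 10.9 and 11.5 in inhibitor arrays, against 12.4, 12.7 and 12.7 in DMSO arrays. The DMSO arrays lay within 0.23 of each other, while the inhibitor arrays spread over 0.95, inhibitor 3 being the highest. The log2 difference was -1.61 ± 0.24 (SE, 3 arrays per group; limma adjusted p 0.00839), and -1.89, -1.77 and -1.17 within replicates 1, 2 and 3. The call was kept without any one array, at -1.87 to -1.39. This probe set is of the kind that can bind more than one transcript, as its identifier's ending shows.

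The other PCOLCE2 probe set read 3.39, 3.35 and 3.25 in inhibitor arrays, against 3.63, 4.18 and 4.14 in DMSO arrays. Only DMSO 2 and DMSO 3 reached 4, so the probe set was left out by the filter; with no filter its limma adjusted p was 0.113. The groups did not overlap, and the difference of -0.65 had the direction of the bright probe set.

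ADAMTS2, the metalloproteinase that removes the N-propeptide of procollagens and whose loss in people causes the dermatosparaxis form of Ehlers-Danlos syndrome, had 1 tested probe set. It read 7.55, 6.70 and 6.98 in inhibitor arrays, against 7.18, 6.82 and 6.77 in DMSO arrays. The groups overlapped, and replicate 1 was the highest of each. The log2 difference was 0.15 ± 0.25 (SE, 3 arrays per group; limma adjusted p 0.742, and 0.487 with the block). Its 95% interval of -0.45 to 0.75 does not include a fall of the size of TLL1 or PCOLCE2. The sign turned without inhibitor 1, at -0.087. A dimmer ADAMTS2 probe set lay at 3.37 to 3.80 in inhibitor and 3.35 to 3.38 in DMSO arrays, under the filter.

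**Figure D2:**
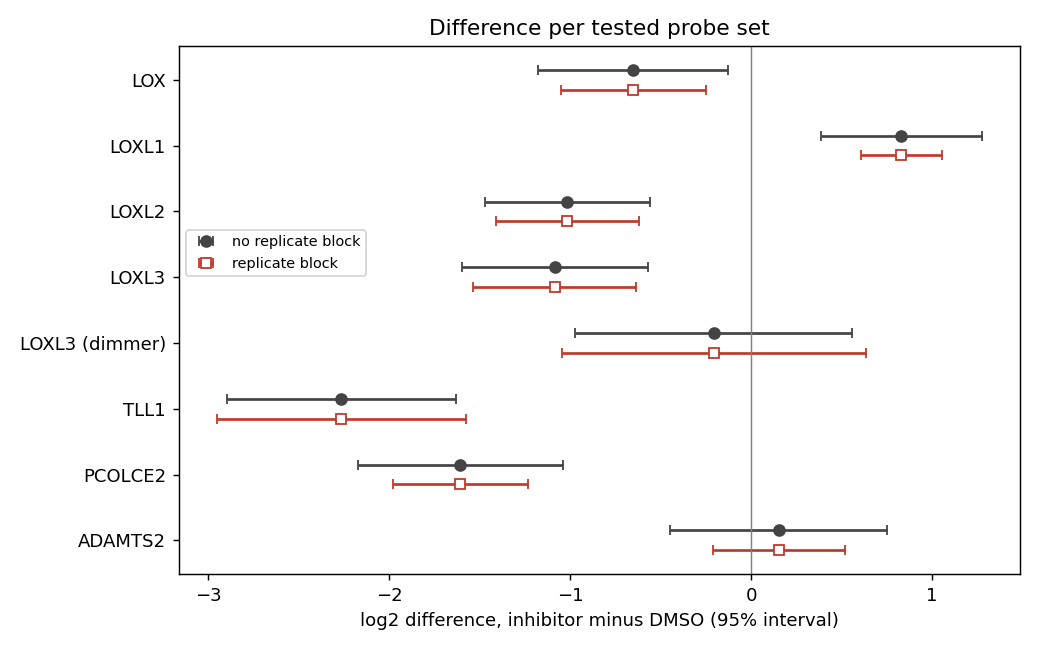
Log2 difference, inhibitor minus DMSO (horizontal axis), of each tested probe set with its 95% interval, without the replicate block (filled circles) and with it (open squares). Only LOXL1 and ADAMTS2 lie to the right of 0, at 0.83 and 0.15, and the intervals of ADAMTS2 and of the dimmer LOXL3 probe set include 0.

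Inhibitor and DMSO arrays did not overlap for LOX, LOXL1, LOXL2, the brighter LOXL3 probe set, TLL1 and PCOLCE2. These are 6 of 8 tested probe sets, against 35.8% of all tested probe sets. Without overlap, same-numbered arrays must give the same sign in all 3 replicates, so that is no separate result. Replicate 3 had the difference nearest to 0 for LOX, LOXL1, LOXL2, TLL1 and PCOLCE2. The plot of adjusted p with arrays left out sets TLL1 and PCOLCE2, which passed in every such fit, beside the lysyl oxidases, which did not.

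**Figure D3:**
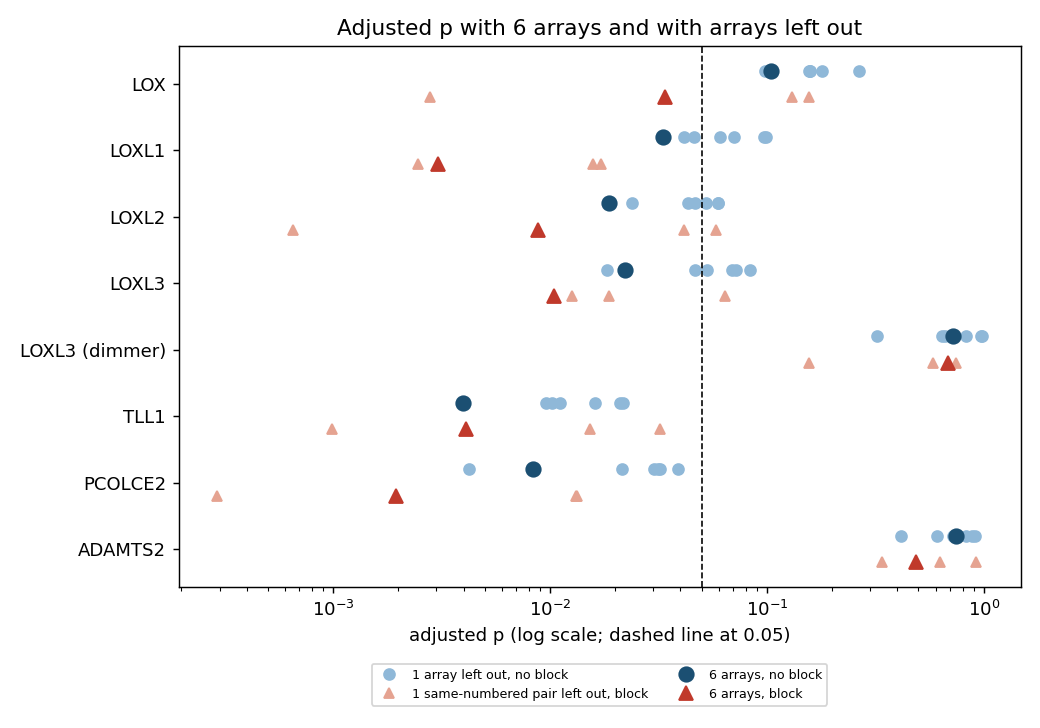
Adjusted p of each tested probe set (horizontal axis, log scale, dashed line at 0.05) in limma without the replicate block (circles) and with it (triangles); dark symbols use 6 arrays, and pale symbols leave out 1 array or 1 same-numbered pair. All symbols of TLL1 and PCOLCE2 lie left of the line, those of LOX, LOXL1, LOXL2 and the brighter LOXL3 probe set lie on both sides, and those of ADAMTS2 and the dimmer LOXL3 probe set lie right of it.

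Genes were also ranked by how like TLL1 their pattern over the 6 arrays was, leaving out placeholder symbols that start with LOC. The most alike of the rest were PUS3, a pseudouridine synthase (Pearson r = 0.995), NIFK, a nucleolar protein (0.995), and JUN, a transcription factor subunit of AP-1 (0.993). Their own log2 differences were smaller, at -0.81 ± 0.13 for PUS3, -0.31 ± 0.07 for NIFK and -0.36 ± 0.08 for JUN (SE, 3 arrays per group). An r above 0.95 with TLL1 was found for 184 of 8124 genes. A shared fall in the inhibitor arrays raises such an r, and no other link was tested.

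The substrates of these enzymes, the fibrillar collagen chains and elastin, were set beside them. Here and in the lists that follow, the shares of all tested genes are 8.17% that rose and 7.5% that fell without the block, and 16.5% and 15.2% with it. Of 9 tested genes, 8 chains and elastin, limma called 0 without the block (3 fell at an unadjusted p under 0.05), and COL1A2, COL5A1 and COL11A1 fell with it. COL1A1 read 15.5, 15.3 and 15.4 in inhibitor arrays, against 15.4, 15.5 and 15.6 in DMSO arrays, and COL3A1 read 15.1, 14.9 and 15.1 in inhibitor arrays, against 15.0, 15.0 and 15.1 in DMSO arrays. The groups overlap for both genes, close to the top of the scale at 16.0, where probe sets can respond less than in proportion. The 5 other tested probe sets of COL3A1, with means of 5.16 to 14.1 over the 6 arrays, stood at -0.050 to 0.27 (limma adjusted p 0.663 to 0.850). COL1A1 had no other tested probe set. COL11A1, a minor chain that nucleates fibrils, read 6.88, 5.73 and 7.16 in inhibitor arrays, against 9.39, 7.05 and 9.16 in DMSO arrays, which overlap, at -1.95 ± 0.69 (SE; limma adjusted p 0.118, and 0.00408 with the block). COL5A1 read 14.2, 13.4 and 14.2 in inhibitor arrays, against 14.8, 14.5 and 14.9 in DMSO arrays, without overlap, at -0.81 ± 0.24 (SE; limma adjusted p 0.0788, and 0.00379 with the block). COL1A2 stood at -0.35 ± 0.15 (SE; limma adjusted p 0.189, and 0.0220 with the block). This probe set averaged 14.7 over the 6 arrays, also high on the scale. The 5 other tested probe sets of COL1A2, with means of 8.71 to 14.7, stood at -0.64 to -0.37. None of them passed without the block (limma adjusted p 0.0642 to 0.498). Elastin, ELN, which LOX and LOXL1 cross-link, read 8.08, 8.21 and 8.11 in inhibitor arrays, against 7.64, 8.12 and 7.26 in DMSO arrays, and its difference of 0.46 ± 0.23 did not pass (limma adjusted p 0.236). The median log2 difference of the 9 genes was -0.13.

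The remaining proteinases of procollagen and the convertases that activate tolloid proteinases did not pass, with 0 of 5 tested genes below 0.05 in limma even before adjustment. ADAMTS3, a relative of ADAMTS2, stood at -0.64, PCSK6 at -0.35, PCSK5 at -0.32, PCSK7 at -0.21 and FURIN at -0.017 (limma adjusted p 0.307 to 0.946). The probe sets of ADAMTS3 and FURIN were dim. ADAMTS3 averaged 4.52 in inhibitor and 5.16 in DMSO arrays, and FURIN 5.04 and 5.06. Probe sets this near the filter level of 4 may miss a change. ADAMTS3 and PCSK6 passed with the block. ADAMTS14, MEP1A and MEP1B were named on the array but did not reach the filter, and TLL2 was not named on it.

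Among other known substrates of tolloid proteinases, 2 of 7 tested genes fell and 0 rose, against 7.5% and 8.17% of all genes. With the block 3 fell and 1 rose, LAMA3, a laminin chain, at 0.69 ± 0.29 (SE; limma adjusted p 0.172, and 0.0162 with the block), against 15.2% and 16.5% of all genes. Biglycan, BGN, a small proteoglycan of collagen fibrils, read 6.47, 6.59 and 5.64 in inhibitor arrays, against 10.1, 9.65 and 9.93 in DMSO arrays, a difference of -3.65 ± 0.27 (SE; limma adjusted p 0.00105). LTBP1, which tethers latent TGF-beta to the matrix and is released from it by tolloid cleavage, read 12.6, 12.4 and 12.3 in inhibitor arrays, against 14.4, 14.2 and 13.9 in DMSO arrays, a difference of -1.72 ± 0.15 (SE; limma adjusted p 0.00151). Decorin, DCN, the close relative of biglycan, read 14.4, 14.3 and 14.5 in inhibitor and 14.5, 14.2 and 14.6 in DMSO arrays. The median log2 difference of the 7 genes was -0.14.

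Matrix proteins that bind or hold these enzymes fell in 5 of 9 tested cases and rose in 0, against 7.5% and 8.17% of all genes, with the same counts under the block (15.2% and 16.5% of all genes). Periostin, POSTN, which in mice binds BMP1 and promotes LOX activation, read 10.4, 10.9 and 12.7 in inhibitor arrays, against 14.0, 14.0 and 14.5 in DMSO arrays, a difference of -2.81 ± 0.55 (SE; limma adjusted p 0.0217). TIMP3, an inhibitor of metalloproteinases that also blocks ADAMTS2, read 11.0, 10.4 and 10.5 in inhibitor arrays, against 13.2, 12.5 and 13.5 in DMSO arrays, a difference of -2.45 ± 0.28 (SE; limma adjusted p 0.00372). The other 3 that fell were the thrombospondins THBS2 (-2.48 ± 0.53) and THBS1 (-1.14 ± 0.25) and FBLN5, which in mammals binds LOXL1 at elastic fibres (-1.03 ± 0.14). Without the block, leaving out inhibitor 1, inhibitor 2 or any DMSO array ended the POSTN call (limma adjusted p 0.0556 to 0.0780). Leaving out inhibitor 1, inhibitor 2, DMSO 1 or DMSO 2 ended that of THBS1 (0.0695 to 0.0948). Leaving out inhibitor 2, inhibitor 3, DMSO 1 or DMSO 3 ended that of THBS2 (0.0515 to 0.0962). With the block on 6 arrays the limma adjusted p was 0.00368 for POSTN, 0.0293 for THBS1 and 0.000531 for THBS2. Fibronectin, FN1, on which BMP1 and LOX meet, stood at -0.094 ± 0.065 (SE; limma adjusted p 0.400), with values up to 16.0, and 2 of its other probe sets rose, by 0.53 and 0.49. The median log2 difference of the 9 genes was -1.03.

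Copper supply was included because lysyl oxidases need the metal. Of 5 tested genes limma called 0 without the block (1 at an unadjusted p under 0.05), and SLC31A1, the copper importer of the cell surface, and COX17, a copper chaperone of mitochondria, fell with it. SLC31A1 read 9.86, 9.95 and 9.16 in inhibitor arrays, against 10.6, 10.3 and 10.1 in DMSO arrays, without overlap, at -0.69 ± 0.24 (SE; limma adjusted p 0.111). ATP7A, the pump that loads copper onto lysyl oxidases in the secretory pathway, was not named on the array, and ATOX1, which hands copper to it, stood at 0.16 ± 0.13 (SE; limma adjusted p 0.458).

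Upstream of secretion, 6 of 16 tested genes of collagen modification and folding fell, 10 with the block, and none rose in either fit, where 7.5% of all genes fell without the block and 15.2% with it. P4HA2, a catalytic subunit of prolyl 4-hydroxylase, read 10.5, 10.6 and 10.7 in inhibitor arrays, against 11.9, 11.9 and 11.9 in DMSO arrays, a difference of -1.28 ± 0.08 (SE; limma adjusted p 0.000684). FKBP14, a prolyl isomerase of the endoplasmic reticulum, stood at -0.90 ± 0.14, PLOD2, the lysyl hydroxylase that sets the kind of cross-link lysyl oxidases go on to form, at -0.63 ± 0.09, and P3H1, a prolyl 3-hydroxylase, at -0.59 ± 0.14. PLOD2 read 13.9, 13.8 and 13.9 in inhibitor arrays, against 14.7, 14.4 and 14.4 in DMSO arrays. Without the block, the P3H1 call was lost without any one array (limma adjusted p 0.0523 to 0.120). With the block on 6 arrays its limma adjusted p was 0.0188. The other tested P3H1 probe set stood at -0.54 and did not pass without the block (limma adjusted p 0.0574). CRTAP, the partner of P3H1, and SEC23A, a coat protein of secretory vesicles, stood at -0.47 ± 0.11 and -0.45 ± 0.11 (SE). Without the block, the CRTAP call was lost without inhibitor 1, inhibitor 2, DMSO 1 or DMSO 3 (limma adjusted p 0.0873 to 0.103). That of SEC23A was lost without any one array but inhibitor 2 (0.0524 to 0.127). With the block on 6 arrays the limma adjusted p was 0.00886 for CRTAP and 0.0162 for SEC23A. Other tested SEC23A probe sets stood at -0.69 to -0.57, and without the block their limma adjusted p was 0.0402 to 0.0565. The median log2 difference of the 16 genes was -0.42.

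**Figure D4:**
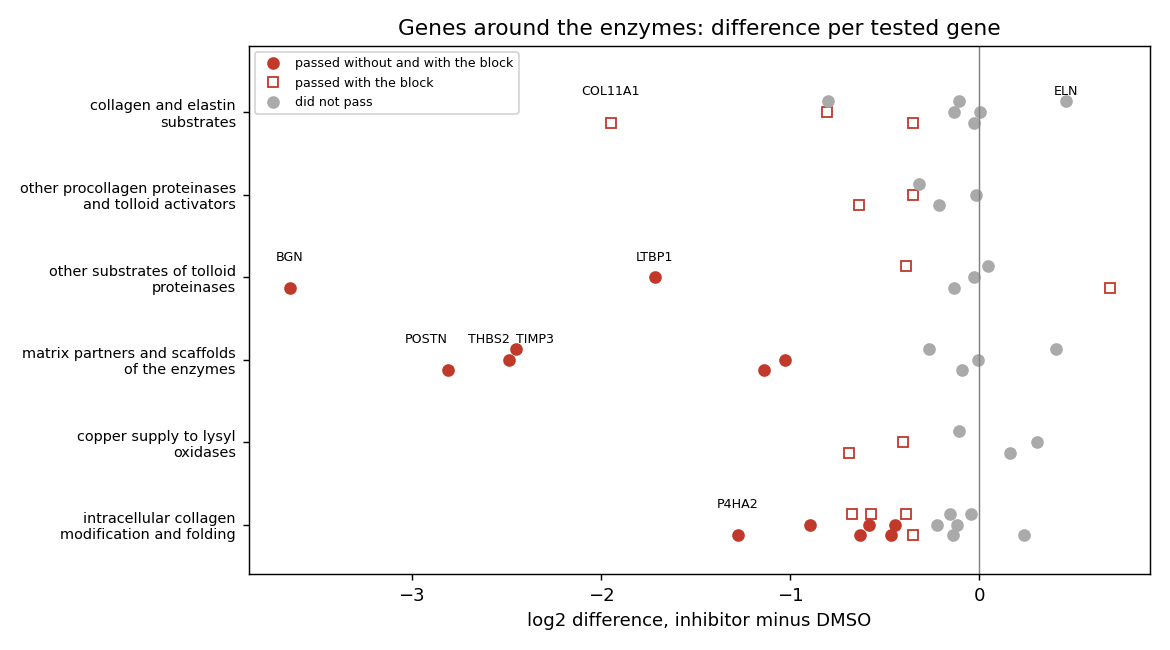
Log2 difference, inhibitor minus DMSO (horizontal axis), of each tested gene in 6 lists around the enzymes; filled red circles passed without and with the replicate block, open squares passed only with it, and grey circles did not pass. No gene of these lists rose without the block, and the filled circles lie among tolloid substrates, matrix partners and the intracellular folding genes.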

How the data were processed

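The authors deposited a log2 intensity for each probe set on each array. GCRMA, which corrects background, normalizes and summarises Affymetrix probes, made them, and Partek 6.4 was also used, per the submitters' processing notes. Settings were not given. The log2 scale was read from the values, which ran from 1.12 to 16.0. The number of arrays limits the precision. Sample titles gave each array's group and replicate number.

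The 96 control probe sets among the 38535 were not used. Of the others, 16567 were tested, having a log2 value of 4 or more on 3 or more of the 6 arrays. All 8 tested probe sets of the group passed in all 6 arrays. Names came from the platform annotation, which can be old: 27178 probe sets carried 1 symbol, 177 several and 11180 none. A gene was represented by its tested probe set with the highest mean, giving 8124 genes. The comparison, inhibitor minus DMSO, used limma 3.58.1 (R 4.3.3) with lmFit and trended eBayes, two-sided. P-values were adjusted by Benjamini-Hochberg over the 16567 probe sets, and the script was tested on simulated data.

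Replicate numbers pair the samples. After subtracting group means, values correlated at 0.63, 0.67 and 0.45 between inhibitor and DMSO arrays numbered 1, 2 and 3, and at -0.45 to -0.14 between unlike numbers. Subtracting the mean of 3 arrays pushes the unlike-number values below 0 when the like-number values lie above it. The negative values are therefore no separate evidence of pairing. The labels do not say what the numbers share, so the pairing rests on this check. Named genes were every gene of the group, up to 4 called genes per list by size, and COL1A1, COL1A2, COL3A1 and ELN. The 3 genes most like the called member with the largest difference were also named, skipping placeholder LOC symbols. FN1, DCN, FBLN5, LAMA3, CRTAP, SEC23A, SLC31A1, COX17, ATOX1, COL5A1, COL11A1 and the proteinase genes that did not pass, with the array markers, were added after their values were seen. The members, gene lists and tests were chosen with earlier results of these data known. Differences between lysyl oxidases within an array were also compared between the groups and are not reported, since 3 arrays against 3 cannot reach an exact permutation p under 0.1.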

Additional observations from a re-analysis of the deposited data

How the results depend on the processing

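Of 8 tested probe sets of the group, 5 were called, and the count was 5 with median centring, with a stricter filter of a log2 value of 6, with values under 4 set to 4 and without the intensity trend, and 6 with the replicate block. It was 2 with no filter (38439 probe sets tested), TLL1 and PCOLCE2, and 2 to 4 without any one array. By gene the counts were the same: 2 with no filter and 2 to 4 without any one array. The mean of a gene's probe sets called 4 genes, since LOXL3 then stood at -0.65 (limma adjusted p 0.110). With the replicate block and without replicate pair 1, an alternative added after the data were seen, 3 probe sets and 3 genes were called. Without pair 2 it was 5 of each, and without pair 3 it was 6 of each. Over all probe sets 2283 were called, 4661 with the replicate block, 1285 with no filter and 1107 to 1658 without any one array. Over the 51 tested genes of the 6 lists 13 were called, 26 with the replicate block (1 rose, LAMA3, and 25 fell), 7 with no filter and 7 to 10 without any one array. Of all 8124 tested genes 15.7% were called without the block and 31.6% with it. Median centring on the tested probe sets called 1125 higher and 1228 lower, and centring on all probe sets 1217 higher and 1034 lower. The second was tried first and replaced after its counts were seen, because that median lies under the filter level, and both called the same 5 genes of the group. The block ended no call of the group. The dimmer LOXL3 probe set ranged from -0.49 to 0.024 without any one array, changing sign without inhibitor 1 and without DMSO 1 (0.018), and stood at 0.25 with the replicate block without pair 1. ADAMTS2 ranged from -0.087, without inhibitor 1, to 0.34. The difference between the LOXL3 probe sets was -1.06 to -0.61 without any one array. Testing fewer samples or more probe sets can by itself lower the counts. It did not always do so, since 4979 of all probe sets were called with the block and without pair 3, against 4661 on 6 arrays. The causes of the changes in counts were not tested. Probe sets under the filter, those of LOXL4 among them, were tested only in the fit with no filter.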

Other observations

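In the GRCg7b assembly, used only for gene order, the protein-coding genes on either side of the 7 tested genes gave 14 positions, of which 7 had a tested probe set. ENTPD4, beside LOXL2, fell by 0.71 on the log2 scale, with a limma adjusted p of 0.0498 close to the threshold. HTRA2, a mitochondrial protease gene beside LOXL3, stood at -0.48 ± 0.12 (SE, 3 arrays per group; limma adjusted p 0.0529 unblocked and 0.0190 blocked by replicate number). SRFBP1, beside LOX, stood at 0.32 ± 0.29 (limma adjusted p 0.529 unblocked and 0.0259 blocked), opposite in sign to LOX. R3HCC1, TRPC1, RUFY1 and CNOT6 did not pass in either fit. That is 1 of 7 called without the block and 3 of 7 with it, where 15.7% and 31.6% of all tested genes were called. The neighbours of TLL1 and LOXL1 were not tested. These genes were looked at after the results were seen.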
